A study of Mus musculus with 10 samples.

Results

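The 7 genes described here encode cadherins known from the heart and its vessels, namely Cdh2, Cdh3, Cdh4, Cdh5, Cdh6, Cdh11 and Cdh13. They were chosen by name, each was represented by its transcript cluster that names no other gene, and all 7 of 7 were found among 19938 genes represented in this way. A transcript cluster is the set of probes along the exons of a gene that an Affymetrix Mouse Gene 1.0 ST array reads as 1 log2 signal. RNA came from hearts of embryos at E10.5, with 5 samples of WT (CAR +/+) and 5 of CAR KO (CAR -/-), each sample holding 3 pooled hearts. The embryos of both genotypes came from matings of CAR +/- mice, and no treatment was given. CAR KO embryos carry the null allele of the line B6.Cg-Cxadr tm1/Fgr in every cell, and not in the myocardium alone, and thus lack the coxsackie-adenovirus receptor. The labels do not say which hearts share a litter, so p-values measure the spread between these samples. The genotypes were compared by the moderated test of limma over 28944 transcript clusters, with Benjamini-Hochberg adjustment over all of them and a threshold of 0.05.

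Cadherins are adhesion molecules that bind the same or a related cadherin on a neighbouring cell in a calcium-dependent way. Classical cadherins span the membrane, and their cytoplasmic tail binds β-catenin or plakoglobin and p120-catenin, which couple the contact to actin and control its turnover. In the heart the adherens junctions built on N-cadherin join cardiomyocytes end to end and are the sites where the intercalated discs form, while VE-cadherin holds endothelial and endocardial cells together. Cdh2 (N-cadherin), Cdh3 (P-cadherin) and Cdh4 (R-cadherin) are type I classical cadherins. Cdh5 (VE-cadherin), Cdh6 (K-cadherin) and Cdh11 (OB-cadherin) belong to the type II group. Cdh13 (T-cadherin) is atypical because it is held by a lipid anchor and has no cytoplasmic tail.

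The genes lie apart from Cxadr, the gene of CAR on chromosome 16, and 4 of them share chromosome 8. In the GRCm38.p6 annotation these are Cdh11 (102632095 to 102785493), Cdh5 (104101613 to 104144504), Cdh3 (106510852 to 106556911) and Cdh13 (118140017 to 119324929). Cdh2 lies on chromosome 18 (16588877 to 16809246), Cdh4 on chromosome 2 (179442423 to 179899377) and Cdh6 on chromosome 15 (13028699 to 13176407). The annotation assigns 1 transcript cluster to each gene alone.

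The labels were checked on Cxadr, with log2 means of 8.38 ± 0.18 for WT and 6.46 ± 0.17 for CAR KO (SD, n = 5 each). No CAR KO sample reached the lowest WT sample for it. It was the 1 transcript cluster called over the array (0.00345% of those tested). The hearts carried their own transcripts, as 12 of 12 cardiomyocyte markers and 14 of 14 endothelial and endocardial markers lay above a background of 6.50, the 95th percentile of 1205 odorant and vomeronasal receptor clusters. The samples also differed in transcripts of liver and yolk sac. Alb, the gene of serum albumin, spanned 7.77 to 12.08 among WT and 6.28 to 12.90 among CAR KO samples, and the mean of 11 liver and yolk sac markers was highest in CAR KO sample 5, WT sample 5 and WT sample 2.

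All 7 cadherin transcripts were above background in E10.5 hearts, and none passed an adjusted p under 0.05 between CAR KO and WT (0.00345% of all transcript clusters did). The transcript with the smallest p was Cdh11, at a log2 fold change of -0.23 (CAR KO minus WT), and it was the 1 cadherin with an unadjusted p under 0.05 in limma, where 2.4% of all transcript clusters had one. The methods' t-test gave an unadjusted p under 0.05 for 2 cadherins, Cdh4 and Cdh11 (2.63% of all transcript clusters had one in that test), and called none after Benjamini-Hochberg. The log2 fold change was below 0 for 6 of the 7 and above 0 for Cdh6. The median over the 7 was -0.11, beside -0.0001 over 14688 genes above background, of which 50.1% were below 0. No cadherin had genotypes without overlap, and 0.359% of all transcript clusters had. In whole hearts, fewer cells of a type and less RNA per cell cannot be told apart.

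**Figure D1:**
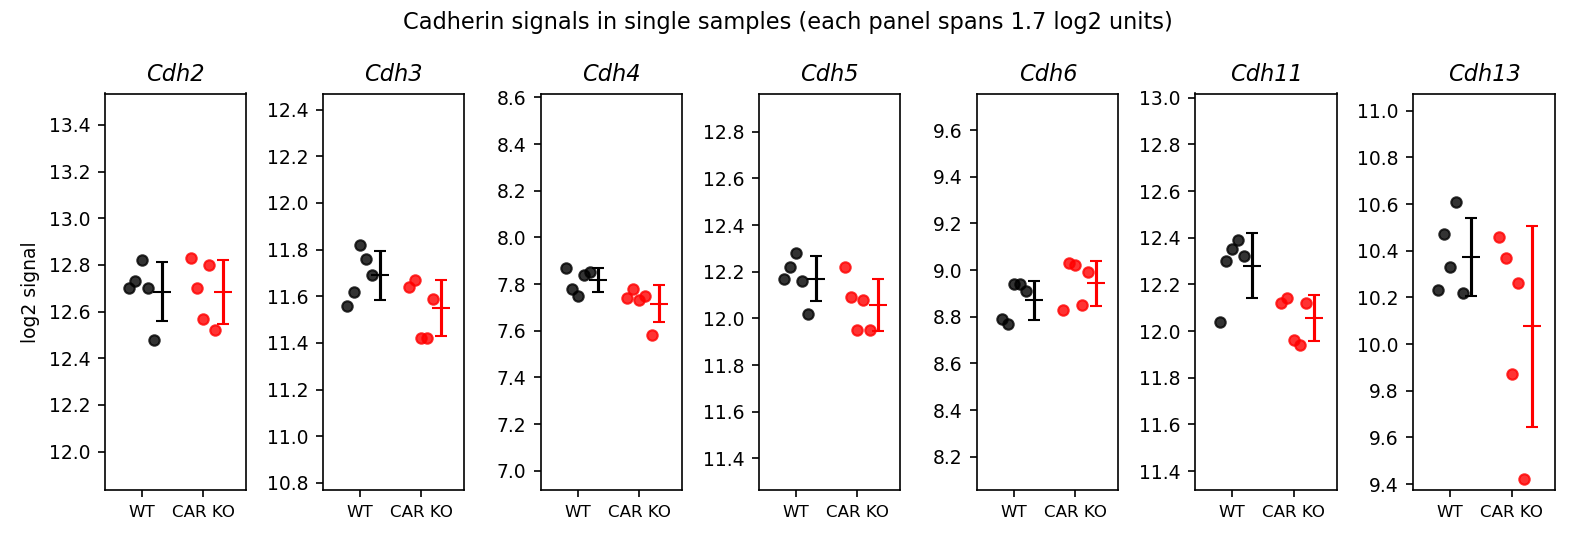
Log2 signal of the 7 cadherins for each sample, WT in black and CAR KO in red, with mean and SD (n = 5) to the right of the points; every panel spans the same number of log2 units, and signals are not comparable between genes. The Cdh11 signals of 4 WT samples lie above all CAR KO samples, and the Cdh13 signals of CAR KO reach down to 9.42.

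Of the type I cadherins, Cdh2, the cadherin of the intercalated disc, had nearly the same mean in both genotypes. Its log2 signal was 12.70, 12.73, 12.82, 12.70 and 12.48 in WT samples 1 to 5 and 12.83, 12.70, 12.57, 12.80 and 12.52 in CAR KO samples 1 to 5. The 2 lowest values belonged to WT sample 5 and CAR KO sample 5, and the genotypes overlapped over nearly the whole range. The means were 12.69 ± 0.13 for WT and 12.68 ± 0.14 for CAR KO (SD, n = 5 each). The log2 fold change of -0.002 had a 95% confidence interval of -0.18 to 0.18, which corresponds to a change between -11.8% and 13.0% on the linear scale. The difference thus had no settled sign, and it turned above 0 after quantile normalization (0.001) and with array weights (0.04). Cdh2 was within a 1.2-fold change in either direction.

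Cdh3, which is known from placenta and epithelia, was at 11.56, 11.62, 11.82, 11.76 and 11.69 in WT samples 1 to 5. In CAR KO samples 1 to 5 it was at 11.64, 11.67, 11.42, 11.42 and 11.59. CAR KO samples 3 and 4 lay below all WT samples, WT samples 3, 4 and 5 lay above all CAR KO samples, and the other 5 samples overlapped. The means were 11.69 ± 0.11 and 11.55 ± 0.12 (SD, n = 5 each). The log2 fold change was -0.14 (standard error 0.07, 95% confidence interval -0.30 to 0.02, adjusted p = 1.0 from limma), and a two-sided exact permutation test gave p = 0.103.

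Cdh4, the retinal cadherin, had the smallest pooled SD within genotypes of the 7 (0.0652), and its mean lay 1.26 log2 units above background. It was at 7.87, 7.78, 7.75, 7.84 and 7.85 in WT samples 1 to 5 and at 7.74, 7.78, 7.73, 7.75 and 7.58 in CAR KO samples 1 to 5. WT samples 1, 4 and 5 lay above every CAR KO sample, and 4 CAR KO samples lay below every WT sample, in part by less than the second decimal. The means were 7.82 ± 0.05 and 7.72 ± 0.08 (SD, n = 5 each), and the log2 fold change between them -0.10 (95% confidence interval -0.23 to 0.02, adjusted p = 1.0 from limma). The exact permutation test gave an unadjusted p of 0.0238 for Cdh4, where 0.00794 is the smallest that 5 samples against 5 allow. Without CAR KO sample 5, the lowest, the log2 fold change was -0.07.

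Among the type II cadherins, Cdh5 stood for the endothelium and endocardium. Its log2 signal was 12.17, 12.22, 12.28, 12.16 and 12.02 in WT samples 1 to 5 and 12.22, 12.09, 11.95, 12.08 and 11.95 in CAR KO samples 1 to 5. WT sample 3 was the 1 WT sample above all CAR KO samples, and CAR KO samples 3 and 5 lay below all WT samples. With means of 12.17 ± 0.10 and 12.06 ± 0.11 (SD, n = 5 each), the log2 fold change was -0.11, or -7.4% on the linear scale (95% confidence interval -16.8% to 3.04%, exact permutation p = 0.127). With array weights the log2 fold change of Cdh5 was -0.06. The median log2 fold change of 14 other endothelial and endocardial markers was -0.05, with 10 below and 4 above 0 and none at an unadjusted p under 0.05. Their mean signal lay between 10.08 and 10.27 in the WT samples and between 9.91 and 10.23 in the CAR KO samples, and all 14 were above background. Their part in the difference of Cdh5 was not tested.

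Cdh6, known from kidney and neural crest, was the cadherin with the higher mean in CAR KO hearts. It was at 8.79, 8.77, 8.94, 8.94 and 8.91 in WT samples 1 to 5 and at 8.83, 9.03, 9.02, 8.85 and 8.99 in CAR KO samples 1 to 5. CAR KO samples 2, 3 and 5 lay above all WT samples, and WT samples 1 and 2 below all CAR KO samples. The log2 fold change was 0.08 (95% confidence interval -0.07 to 0.22, exact permutation p = 0.214), within a 1.2-fold change. It was 0.006 with array weights, 0.049 without WT sample 2 and 0.045 with the 3 liver-rich samples left out. Markers of foregut and simple epithelium were also higher on balance, with 7 of 9 above 0, a median log2 fold change of 0.16 and none at an unadjusted p under 0.05 in limma. Of the markers above 0, Shh (0.004) and Spint2 (0.010) lay close to 0, and Epcam was the highest (0.394). Foxa2 (-0.016) and Nkx2-1 (-0.011) were those below 0. The mean of the list lay between 7.61 and 8.32 in the WT samples and between 7.74 and 8.43 in the CAR KO samples. Above background were 9 of 9, and the part of these markers in the difference of Cdh6 was not tested.

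Cdh11, which marks mesenchyme and is known from bone-forming cells, had the smallest p of the 7. It was at 12.04, 12.30, 12.35, 12.39 and 12.32 in WT samples 1 to 5, and at 12.12, 12.14, 11.96, 11.94 and 12.12 in CAR KO samples 1 to 5. WT samples 2 to 5 lay above all CAR KO samples, and WT sample 1 lay among them. Its means were 12.28 ± 0.14 for WT and 12.05 ± 0.10 for CAR KO (SD, n = 5 each). The log2 fold change was -0.23 (standard error 0.08, 95% confidence interval -0.39 to -0.06, unadjusted p = 0.0129 and adjusted p = 1.0 from limma), or -14.5% on the linear scale (95% confidence interval -23.9% to -3.9%). The exact permutation test gave an unadjusted p of 0.0317. With each sample left out in turn the unadjusted p from limma stayed under 0.05 in 10 of 10 runs, from 0.00117 without WT sample 1 to 0.0365 without WT sample 4. With WT samples 2 and 5 and CAR KO sample 5, which held the most liver transcripts, left out, it was -0.22 with an unadjusted p of 0.0528 from limma.

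Other transcript clusters carry the name of Cdh11 beside a pair of RIKEN genes, 3 in number, and were not used for it because they do not name 1 gene. Their log2 fold changes were -0.13, -0.10 and -0.11, with unadjusted p from limma between 0.181 and 0.416. In all 3 of them WT sample 1 lay among the brightest samples, whereas it was the dimmest WT sample in the cluster of Cdh11 alone.

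Sets of mesenchymal and mesothelial markers stood beside Cdh11. Of 12 cushion mesenchyme markers 6 were below and 6 above 0, with a median log2 fold change of -0.007. Sox9, a transcription factor of cushion mesenchyme, was the 1 among them with an unadjusted p under 0.05 in limma (log2 fold change of -0.21, exact permutation p = 0.0238). All 8 of 8 epicardial markers had a log2 fold change below 0, with a median of -0.18, and 4 had an unadjusted p under 0.05 (1.43% of all transcript clusters had one with a lower mean in CAR KO), though none passed the adjusted threshold. These were the uroplakins Upk3b (-0.46) and Upk1b (-0.22), the retinoic acid synthesis enzyme Aldh1a2 (-0.57) and the transcription factor Tbx18 (-0.31). Sox9 and these 4 were named after their values were seen. The mean of the epicardial list lay between 9.97 and 10.20 in the WT samples and between 9.62 and 10.13 in the CAR KO samples, and none of its markers was below background. The part of the epicardial and cushion markers in the difference of Cdh11 was not tested.

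Cdh13, the anchored cadherin of vessels and of cardiac muscle, varied most. Its log2 signal was 10.23, 10.47, 10.33, 10.61 and 10.22 in WT samples 1 to 5 and 10.46, 10.37, 9.87, 10.26 and 9.42 in CAR KO samples 1 to 5. CAR KO samples 3 and 5 lay below all WT samples, and the other 3 lay within the range of WT. The SD was 0.17 in WT and 0.43 in CAR KO (n = 5 each). The pooled SD within genotypes of 0.33 was higher than that of 96.8% of the genes above background, whose median was 0.13. For the other cadherins this share was between 7.7% (Cdh4) and 52.7% (Cdh2). The log2 fold change of Cdh13 was the widest in error, at -0.30 (standard error 0.18, 95% confidence interval -0.68 to 0.09, exact permutation p = 0.222), and it was -0.13 without CAR KO sample 5, -0.15 with the 3 liver-rich samples left out and -0.18 with array weights. It was the 1 cadherin of the 7 whose interval passed a 1.5-fold change. The interval lay within 1.5-fold for 6 cadherins and within 1.2-fold for 3 (Cdh2, Cdh4 and Cdh6), beside 97.1% and 63.9% of the genes above background.

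**Figure D2:**
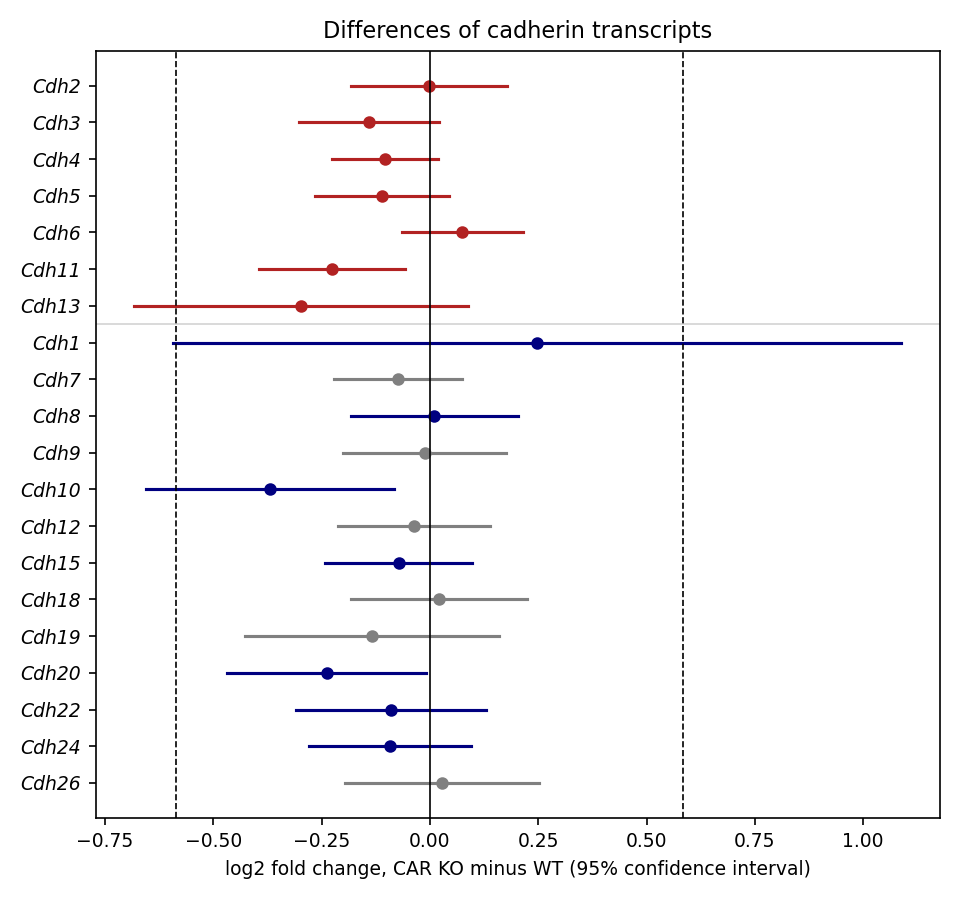
Log2 fold change (CAR KO minus WT) with 95% confidence interval for the 7 cadherins (red, above the grey line) and for 13 other classical and type II cadherins (blue, or grey where not above background); the 1.5-fold limits are dashed. The interval of Cdh11 ends at -0.06, and those of Cdh10 and Cdh20 also end below 0. The intervals of Cdh13, Cdh10 and Cdh1 cross a dashed line.

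Beyond the 7, the array held 13 other classical and type II cadherins, of which 7 were above background and none was called. The unadjusted p was under 0.05 for 2, both below 0, where 1.43% of all transcript clusters had such a p with a lower mean in CAR KO. Cdh10 had means of 8.60 ± 0.20 for WT and 8.23 ± 0.27 for CAR KO (SD, n = 5 each), a difference of -0.37 (exact permutation p = 0.0159). Its lowest, median and highest signals were 8.39, 8.62 and 8.88 in WT and 7.77, 8.37 and 8.42 in CAR KO samples, so that the genotypes overlapped at the edge. Cdh20 had a log2 fold change of -0.24 (exact permutation p = 0.0794), and Cdh24 of -0.09. Cdh1 (E-cadherin), named after its values were seen, is the cadherin of epithelia, and it was at 7.86 ± 0.66 in WT and at 8.10 ± 0.79 in CAR KO samples (SD, n = 5 each). Its log2 fold change of 0.25 had a 95% confidence interval of -0.59 to 1.09.

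Of 19 other members of the superfamily, which include the Fat, Dachsous, Celsr and calsyntenin genes, none had an unadjusted p under 0.05 in limma, and all 19 lay within a 1.5-fold change. Fat1 differed by -0.09, Clstn1 by -0.06, Dchs1 by -0.19 and Clstn2 by -0.15 on the log2 scale. Of 12 non-clustered protocadherins Pcdh9 had an unadjusted p under 0.05 in limma (log2 fold change of -0.30, exact permutation p = 0.0397), that is 1 of 12 where 1.43% of all transcript clusters had such a p with a lower mean in CAR KO. Pcdh7 differed by -0.04, Pcdh18 by -0.11 and Pcdh1 by -0.15.

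The partners of the cadherin tail were all above background. None of 21 catenins and tail partners was called, the median log2 fold change was -0.03, and 21 of 21 lay within a 1.5-fold change. Ctnnb1 and Jup, the genes of β-catenin and plakoglobin, which bind the tail and link it to α-catenin, differed by -0.03 and -0.07. Ctnnd1, the gene of p120-catenin, which holds cadherins at the surface, differed by -0.12 (95% confidence interval -0.26 to 0.02). Ptpn1, a phosphatase that acts on the cadherin complex, had means of 9.98 ± 0.05 for WT and 9.83 ± 0.08 for CAR KO (SD, n = 5 each). It had an unadjusted p of 0.0190 and an adjusted p of 1.0 from limma, and the exact permutation test gave an unadjusted p of 0.00794, the smallest possible. Its lowest, median and highest signals were 9.91, 9.97 and 10.05 in WT and 9.74, 9.82 and 9.91 in CAR KO samples. The genotypes did not overlap for Ptpn1, although the nearest samples agree to the second decimal (0.359% of all transcript clusters did not overlap). Of the 21, Ptpn1 was the 1 with an unadjusted p under 0.05 in limma. Such a p with a lower mean in CAR KO was found for 1.43% of all transcript clusters.

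Enzymes that trim or cleave cadherins numbered 13 on the array, and none was called. Ncstn, a subunit of γ-secretase, had a log2 fold change of -0.14 (unadjusted p = 0.0417 from limma). It was the 1 of 13 with an unadjusted p under 0.05, where 1.43% of all transcript clusters had one with a lower mean in CAR KO. For Ncstn, CAR KO sample 1 (11.95) lay above all WT samples. Psenen, another subunit, had a log2 fold change of 0.05. Mmp14, a membrane-bound matrix metalloproteinase, differed by -0.11. Among 8 transcription factors of mesenchymal transition, which are known to repress E-cadherin or accompany the switch to N-cadherin, none had an unadjusted p under 0.05 in limma. Zeb1 differed by 0.03, Tcf3 by -0.04 and Tcf4 by -0.09.

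Signals of the cadherins were also compared with each other over the 10 samples. Of 21 pairs, 3 had a Pearson's r with an adjusted permutation p under 0.05 (Benjamini-Hochberg over the 21), and by Spearman's rho 1 did. Both Cdh2 with Cdh5 and Cdh5 with Cdh13 were among the 3, Cdh4 and Cdh6 were in none of them, and none of the 3 passed without the 2 samples farthest from the median. Of the 21, 15 were above 0. Samples share their dissection, array and scaling within themselves, so these values describe the samples and not single cells. The permutations treated the 10 samples as unpaired, although samples of equal number may share a litter or batch.

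The strongest pair was Cdh3 and Cdh11, of the type I and the type II group. Pearson's r was 0.896 (permutation p = 0.00037, adjusted p = 0.00777) and Spearman's rho 0.915 (permutation p = 0.00061, adjusted p = 0.0128). The r of the deviations from the genotype means was 0.852 (adjusted permutation p = 0.0245). Without CAR KO samples 3 and 4, the farthest from the median of Cdh3, r was 0.785 over 8 samples (permutation p = 0.0196), and its adjusted p of 0.308 no longer passed.

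Cdh2 and Cdh5 had an r of 0.824 (permutation p = 0.00430, adjusted p = 0.0318) and a rho of 0.782 (permutation p = 0.0103, adjusted p = 0.108). Within genotypes the r of the deviations was 0.950 (adjusted permutation p = 0.0103). Without WT sample 5 and CAR KO sample 5 it was 0.761 (permutation p = 0.0293, adjusted p = 0.308). Cdh5 and Cdh13 had an r of 0.761 (permutation p = 0.00455, adjusted p = 0.0318) and a rho of 0.697 (permutation p = 0.0295, adjusted p = 0.207). Without CAR KO samples 3 and 5, the farthest from the median of Cdh5, r was 0.436 (permutation p = 0.277). Fewer samples over a narrower range can lower r in itself. The deviations from the genotype means gave 0.692 (adjusted permutation p = 0.234). Cdh2 and Cdh11 had no clear relation in these samples, with an r of -0.00754 (permutation p = 0.983) and a rho of -0.115 (permutation p = 0.758). Without WT sample 5 and CAR KO sample 5 their r was 0.269 (permutation p = 0.529), and so few samples cannot exclude a moderate correlation.

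**Figure D3:**
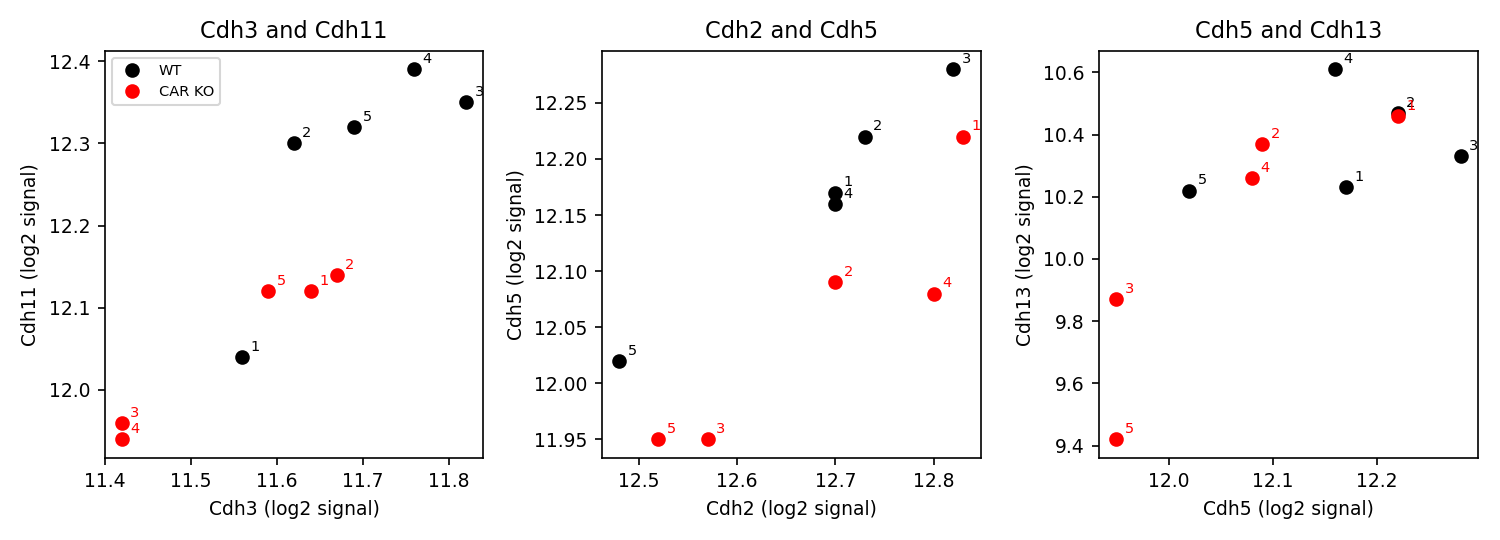
Log2 signals of the 3 pairs of cadherins whose Pearson's r passed the adjusted threshold, with WT in black, CAR KO in red and sample numbers beside the points. Samples of both genotypes lie along 1 line for Cdh3 and Cdh11, and CAR KO samples 3 and 5 set the lower end for Cdh5 and Cdh13.

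The means of 8 marker lists, none of which holds a cadherin, were set against the 7 cadherins over the 10 samples. Of 56 correlations 12 had an unadjusted permutation p under 0.05, and none passed after Benjamini-Hochberg over the 56, by r or by rho. The endothelial and endocardial list gave r of 0.838 with Cdh2 (permutation p = 0.00148, adjusted p = 0.0648), 0.774 with Cdh5 (permutation p = 0.00463, adjusted p = 0.0648) and 0.874 with Cdh13 (permutation p = 0.00411, adjusted p = 0.0648). The rho values were 0.867, 0.661 and 0.721 (permutation p = 0.00207, 0.0437 and 0.0236). Without CAR KO sample 5 and WT sample 5, the farthest from the median of the list, r was 0.806, 0.663 and 0.676 (permutation p = 0.0197, 0.0722 and 0.0727, adjusted p = 0.276, 0.421 and 0.421).

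The cardiomyocyte list gave an r of 0.806 with Cdh2 (permutation p = 0.00406) but a rho of 0.539 (permutation p = 0.112). CAR KO sample 5 and WT sample 5 had the 2 lowest means of cardiomyocyte markers. Without them that r was 0.479 (permutation p = 0.231), but fewer samples over a narrower range can lower r in itself. The r of the deviations from the genotype means was 0.807 (permutation p = 0.00709, adjusted p = 0.17). Cdh6 went with the foregut and simple epithelium list, at an r of 0.800 (permutation p = 0.00853, adjusted p = 0.0955) and a rho of 0.745 (permutation p = 0.0173), and at 0.895 without CAR KO sample 5 and WT sample 5 (permutation p = 0.00211, adjusted p = 0.118). Cdh11 and Cdh3 had their highest r with the epicardial list, at 0.685 and 0.666 (permutation p = 0.0312 and 0.0359), with rho of 0.794 and 0.745 (permutation p = 0.00855 and 0.0178). In the deviations from the genotype means these r were 0.405 and 0.470 (permutation p = 0.211 and 0.227). The epicardial list had an r of like size with Cdh13 (0.698, permutation p = 0.0217) and with Cdh4 (0.675, permutation p = 0.0282). It was thus not particular to Cdh11 and Cdh3. The liver and yolk sac list had r between -0.433 and 0.372 with the cadherins, the lowest permutation p being 0.210.

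**Figure D4:**
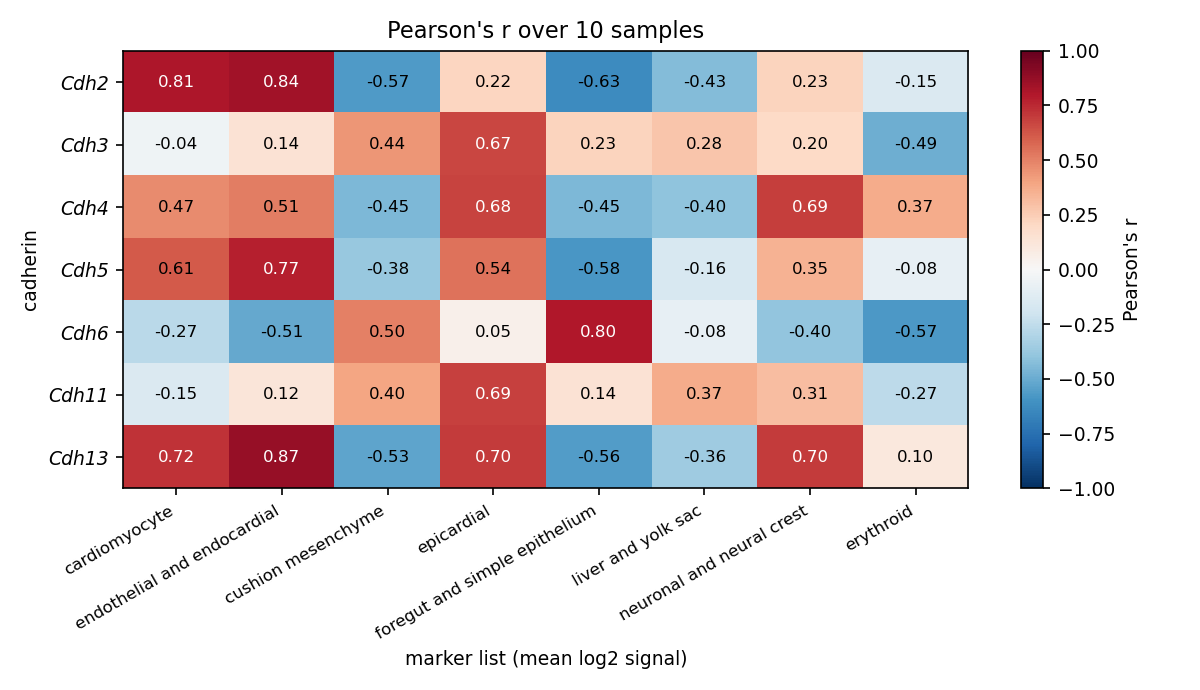
Pearson's r over the 10 samples between each cadherin (rows) and the mean log2 signal of each marker list (columns), with blue for values below 0 and red for values above 0. Cdh2, Cdh5 and Cdh13 have their highest values with the endothelial and endocardial list, and Cdh3 and Cdh11 with the epicardial list. The values of Cdh4 and Cdh13 with the epicardial list are of like size.

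Genes that followed each cadherin most closely were sought by Pearson's r over the 10 samples, as a description with no test. The search covered 14670 genes above background whose symbols do not begin with Cdh, so protocadherins and other relatives stayed in. The highest r among so many genes can be large by chance. For Cdh2 the closest genes were Sgpp1 (r of 0.967), Rtn4ip1 (0.955) and Psap (0.951). For Cdh3 they were Fah (0.940), Igf2 (0.925) and Fmod (0.914), the gene of the matrix protein fibromodulin. Fmod also followed Cdh11 (0.943), beside Paqr8 (0.946) and Arnt (0.938).

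For Cdh4 the closest were Plekhm2 (0.966), Csrp1 (0.960) and Sin3b (0.945), and for Cdh5 they were Sorbs2 (0.955), Slc38a4 (0.934) and Mid2 (0.923). Cdh6 was followed by Klf6 (0.929), Klhdc10 (0.928) and Suox (0.926). Cdh13 was followed by Clca3a1 (0.979), Oplah (0.968) and Tmem176b (0.966). The signal of Clca3a1 spanned 1.67 and that of Cdh13 1.19 on the log2 scale, whereas Arnt spanned 0.09. Those of Clca3a1 and Cdh13 were the widest spans among these genes and the 7 cadherins.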

How the data were processed

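RNA of E10.5 hearts, 5 WT and 5 CAR KO samples, was read on Affymetrix Mouse Gene 1.0 ST arrays. The table deposited by the authors holds 35556 rows of log2 signals. The submitters' processing notes name MAS5, with further normalization steps not given in the sources used here. All values were used as deposited, with array medians between 7.65 and 7.73, and correlations between samples from 0.987 to 0.998. Control rows, recognised by identifier, were removed (6612), and 28944 transcript clusters remained. Of these 21789 name 1 gene, 1621 several and 5534 are unnamed here, by the platform annotation. A gene was represented by its brightest cluster that names no other gene. Genotypes were taken from the sample titles.

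Differences came from lmFit and eBayes of limma 3.58.1 (R 4.3.3) without a filter or trend, with Benjamini-Hochberg adjustment over all clusters. Confidence intervals are those of single genes. Single values were compared with two-sided exact permutation tests (252 splits), and correlations with 100000 permutations. Marker lists were averaged over members above background. The fit was checked on simulated data. The 7 cadherins, the lists and the tests were chosen with earlier results of these data known. Named were the cadherins, Cxadr, Alb, in each list of cadherin relatives and partners the 2 genes of highest signal and the 2 of smallest p, and the 3 genes most correlated with each cadherin. Marker genes were named after their values were seen. Each sample was left out in turn, and other settings tried were array weights, the methods' t-test, a robust prior with trend, the sample number as block, quantile or median scaling, removal of clusters under the 40th percentile and use of single-gene clusters alone. Chosen after the data were seen were the omission of the 3 liver-rich samples and the mean of the liver list as a covariate. A planned comparison of protein sequences was not made. Precision is limited by the number of arrays, and dim probes understate folds. Figures were drawn with matplotlib 3.10.9.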

Additional observations from a re-analysis of the deposited data

Results flagged for a closer look

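Groups of 5 samples were searched for a sample that stood apart from the other 4, for the 7 cadherins, Cxadr and the means of the gene lists in each genotype. Of 44 groups 6 held one, and chance alone gives about 1 in 20, which is 2.2 of 44. Cdh11 in WT was lowest in sample 1, by a gap of 0.728 of the range over the 5 samples. Cdh4 in CAR KO was lowest in sample 5, by 0.719. The cardiomyocyte mean was lowest in WT sample 5 (0.794) and, among CAR KO, also in sample 5 (0.780). The cushion mesenchyme mean was highest in CAR KO sample 5 (0.732), and the mean of neuronal and neural crest markers was highest in WT sample 5 (0.717).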

How the results depend on the processing

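No cadherin and no member of the 6 lists of relatives and partners was called under the 20 alternatives run, and the signs of Cdh3, Cdh4, Cdh5, Cdh6, Cdh11 and Cdh13 were the same in all 20. Cxadr was called in all 20, between -1.97 and -1.84 when 1 sample was left out. The sign of Cdh2 turned in 8 of 20. Its log2 fold change was 0.001 after quantile normalization, 0.035 with array weights and -0.054 to 0.039 with samples left out in turn (0.001 without WT sample 1 or 4, 0.010 without WT sample 2, 0.032 without WT sample 3, 0.026 without CAR KO sample 3 and 0.039 without CAR KO sample 5). The cadherins with an unadjusted p under 0.05 numbered 1 in the comparison as reported. They numbered 2 with the methods' t-test (Cdh4 and Cdh11) and with array weights (Cdh3 and Cdh11), 1 to 2 with samples left out in turn, and 0 with the 3 liver-rich samples left out, where fewer samples were tested. With the number as a replicate block 2 had one, Cdh11 and Cdh13, at log2 fold changes of -0.23 and -0.30 (adjusted p = 0.969 for both from limma), and the block changed no call. Deviations from the genotype means correlated between 0.073 and 0.561 for samples of the same number. Of the samples, 3 of 5 WT and 4 of 5 CAR KO correlated best with their own number. Each had 5 samples of the other genotype to match, of which 1 bore its number. The labels do not say what equal numbers share, so the comparison as reported did not pair them. Whether equal numbers share a litter or batch was not tested, and only the fit with the block allows for it. Over the array, 696 clusters had an unadjusted p under 0.05, with 1811 under array weights, 1304 with the block, 1214 without the 3 liver-rich samples, and 411 (without WT sample 4) to 1029 (without CAR KO sample 5) with samples left out. Pairs of cadherins past the adjusted threshold numbered 0 without the 2 samples farthest from the median, against 3. With quantile normalization 2 correlations of cadherins with marker lists passed, against 0. Apart from fewer samples tested, the cause was not tested. No other cluster named 1 of the 7 genes alone, so another cluster per gene could not be tried.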

Other observations

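The remaining marker lists gave no called gene in limma. Of 12 cardiomyocyte markers 8 were below and 4 above 0 (median log2 fold change of -0.03). Myl2 (log2 fold change of -0.15) was the 1 with an unadjusted p under 0.05 in limma. Of all transcript clusters, 1.43% had such a p with a lower mean in CAR KO. Of 11 liver and yolk sac markers 6 were below and 5 above 0 (median of -0.002). Of 6 neuronal and neural crest markers 4 were below 0 (median of -0.05), and of 7 erythroid markers 5 (median of -0.05). None of the liver, neuronal or erythroid markers had an unadjusted p under 0.05.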
